A study of Mus musculus with 14 samples.

Results

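In kidneys of wild-type (WT) mice with unilateral ureteral obstruction (UUO), the ChIP-seq peaks of crotonylated histone H3 lysine (H3K9cr) were compared with those of the acetylated form of the same residue (H3K9ac). The comparison used 2 libraries per mark. Peaks of the 4 libraries that overlapped by at least 1 bp were merged into 43516 regions. A region counted as carrying one mark only when both libraries of that mark and neither library of the other had a peak in it: 8127 regions were H3K9cr only and 65 were H3K9ac only. By the same rule, applied to the 3 kb either side of either end of 49943 RefSeq genes of GRCm38, 1957 genes were H3K9cr only and 21 were H3K9ac only. The paper lists C57BL/6J mice, 6 to 8 weeks old when purchased, and littermates as controls of its ACSS2-/- mice. It does not state which of these gave the WT kidneys for ChIP-seq. In UUO mice the left ureter had been ligated and cut. Used only for comparison were 10 further libraries, from WT control kidneys (WT C, 2 H3K9cr and 1 H3K9ac), ACSS2-/- control kidneys (ACSS2-/- C, 2 and 1) and obstructed ACSS2-/- kidneys (ACSS2-/- UUO, 2 and 2). ACSS2-/- mice lack the enzyme in the whole body, and control mice had sham surgery. The labels place every library in whole kidney tissue and name a different antibody catalogue number for each group, the same in both libraries of a mark within WT UUO. The paper names the H3K9cr antibody as from PTM and the H3K9ac antibody as from Active Motif, with no division by group. Whether the antibodies differed between groups cannot be told from these sources. The ACSS2-/- mice were of the same age range. How many days the kidneys used for ChIP-seq had been obstructed is not given in the sources used here.

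Crotonylation and acetylation neutralise the charge of the same lysine, are placed by shared writers such as p300 and CBP, and both mark the starts of active genes and active enhancers. The crotonyl group is longer and flat, and it is bound best by YEATS domains, whereas bromodomains bind the acetyl group. ACSS2 makes acetyl-CoA from acetate and crotonyl-CoA from crotonate, the donors for acetylation and crotonylation. By immunoblot, the paper reports lower H3K9cr and unchanged H3K9ac in obstructed kidneys of ACSS2-/- mice. In the obstructed kidney urine backs up, tubule cells are injured, immune cells enter and fibroblasts lay down matrix, which makes ureteral obstruction a standard model of renal fibrosis.

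The promoters below are shown because their H3K9cr-only or H3K9ac-only peaks overlapped at least part of the sequence. Each is 300 bases of RefSeq GRCm38, from 250 bases before to 50 bases from the start site onward, written 5′ to 3′ in the direction of transcription. Capitals mark matches to a nuclear factor kappa B (NF-kB) motif, to the AP-1 motif TGANTCA, or to TATAAA. In the Cxcl10 promoter (chr5:92348840-92349139, minus strand) the capitals are NF-kB matches whose first bases are at -159, -104 and -103 from the start site, the last 2 overlapping on opposite strands, and TGANTCA at -74. The Ccl12 promoter (chr11:82101595-82101894, plus strand) holds TATAAA at -31. No searched motif was matched in the Acta2 (chr19:34255324-34255623, minus strand), Csf2ra (chr19:61228369-61228668, minus strand) or Slc13a5 (chr11:72266555-72266854, minus strand) windows. The first 4 were overlapped by H3K9cr peaks of both replicates and by no H3K9ac peak, and the Slc13a5 window by H3K9ac peaks of both replicates and by no H3K9cr peak. The Csf2ra peaks covered only the start-site end of the window, since they ended at chr19:61228426 and chr19:61228440. At Cxcl10 the replicate 2 peak covered only the far upstream end, before every capitalised match.
Cxcl10: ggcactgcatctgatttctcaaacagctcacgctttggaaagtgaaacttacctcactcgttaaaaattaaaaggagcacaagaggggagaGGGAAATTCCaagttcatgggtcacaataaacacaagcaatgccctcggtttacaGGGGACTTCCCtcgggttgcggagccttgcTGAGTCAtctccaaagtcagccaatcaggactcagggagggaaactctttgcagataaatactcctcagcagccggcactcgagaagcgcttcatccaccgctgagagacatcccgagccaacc
Ccl12: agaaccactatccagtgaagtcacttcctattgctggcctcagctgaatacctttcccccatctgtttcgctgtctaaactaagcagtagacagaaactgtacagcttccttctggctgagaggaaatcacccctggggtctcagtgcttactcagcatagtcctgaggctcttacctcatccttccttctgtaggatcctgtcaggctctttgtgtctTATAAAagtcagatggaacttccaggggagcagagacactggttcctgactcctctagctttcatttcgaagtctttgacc
Acta2: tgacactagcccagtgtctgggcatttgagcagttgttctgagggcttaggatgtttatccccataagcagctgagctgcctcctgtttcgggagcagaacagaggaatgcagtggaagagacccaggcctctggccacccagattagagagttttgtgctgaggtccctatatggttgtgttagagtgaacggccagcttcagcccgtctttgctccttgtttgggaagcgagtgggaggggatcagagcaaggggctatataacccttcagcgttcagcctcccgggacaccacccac
Csf2ra: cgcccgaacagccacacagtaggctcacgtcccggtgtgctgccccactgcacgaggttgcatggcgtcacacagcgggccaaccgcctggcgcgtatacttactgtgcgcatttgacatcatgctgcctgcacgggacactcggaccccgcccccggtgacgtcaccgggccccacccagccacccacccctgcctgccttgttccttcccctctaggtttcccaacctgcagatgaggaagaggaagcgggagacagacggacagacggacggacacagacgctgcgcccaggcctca
Slc13a5: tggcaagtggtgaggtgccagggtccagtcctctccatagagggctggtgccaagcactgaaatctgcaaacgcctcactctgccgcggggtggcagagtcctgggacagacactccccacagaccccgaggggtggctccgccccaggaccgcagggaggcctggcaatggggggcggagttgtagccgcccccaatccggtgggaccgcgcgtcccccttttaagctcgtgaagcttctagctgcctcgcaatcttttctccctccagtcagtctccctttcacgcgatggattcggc

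The lists held 36734 (H3K9cr replicate 1), 30406 (H3K9cr replicate 2), 15988 (H3K9ac replicate 1) and 18580 peaks (H3K9ac replicate 2), covering 44.57, 34.99, 17.7 and 21.24 Mb. Median peak lengths were alike, at 889, 883.5, 908.5 and 918 bp. The lists hold positions without heights, so read depth is unknown, and a missing peak says only that none was called. The difference in list length bears on every count of one-mark regions. H3K9cr replicate 1 stood apart from the other 3 libraries in having 5 peaks on the Y chromosome and none over Xist, where each of the others had 0 and 1, and its peak names carry mouse number 3, which no other WT UUO list does. H3K9ac replicate 1 stood apart in its peaks at T and NK cell marker genes, which it had at 5 of 34 genes against 23, 24 and 21 in H3K9cr replicates 1 and 2 and H3K9ac replicate 2. In the other 3 groups the libraries also differed in Y and Xist peaks within a mark. The mouse numbers in the peak names differ between the replicates of each mark. Only H3K9cr replicate 2 and H3K9ac replicate 2 carry the same number, so that the marks were compared partly across mice.

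H3K9cr occupied many places without H3K9ac, and the opposite was rare. The H3K9cr-only regions made up 18.7% of all regions and the H3K9ac-only regions 0.149%, while 11927 regions (27.41%) had a peak in all 4 libraries. A further 12185 regions had a peak in H3K9cr replicate 1 alone and 5171 in H3K9cr replicate 2 alone. Regions with both H3K9cr peaks and only 1 of the H3K9ac libraries numbered 2181 for H3K9ac replicate 2 and 722 for replicate 1. When each list was cut to its 15988 longest peaks, 1806 (8.205%) of 22012 regions were H3K9cr only and 798 (3.625%) were H3K9ac only. The counts without 1 library ranged from 8856 to 20808 for H3K9cr only and from 128 to 1421 for H3K9ac only; without H3K9cr replicate 1 they were 14460 and 197, and without H3K9ac replicate 1 the H3K9ac-only count was 1421.

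The H3K9cr-only regions were mostly away from gene ends. Of them, 34.82% (2830) lay within 3 kb of a gene end, 40.84% (3319) inside genes farther from their ends and 24.34% (1978) between genes. Of the regions with both marks in all 4 libraries, 88.78% lay at gene ends, 9.189% inside genes and 2.029% between genes. Over all regions these shares were 49.5%, 34.93% and 15.57%. The 65 H3K9ac-only regions resembled the shared regions more in place, with 49 (75.38%) at gene ends, 16 (24.62%) inside genes and 0 between genes. The share of H3K9cr-only regions by chromosome ran from 15.09% on X to 20.6% on chromosome 13, so no chromosome held an outsized part of them.

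H3K9cr-only regions were short and, for the most part, isolated from H3K9ac. The median peak in them was 811 bp in H3K9cr replicate 1 and 640 bp in replicate 2, whereas H3K9cr peaks in regions with both marks had medians of 1731 and 1529 bp. The nearest H3K9ac peak was a median of 16717 bp away, 6.558% of the regions had one within 1 kb, and 10.32% had none within 100 kb. The H3K9ac-only regions were the reverse: the nearest H3K9cr peak was a median of 452 bp away, and 75.38% had one within 1 kb, so that most of them lay on the flank of an H3K9cr peak. Their own median lengths were 438 and 507 bp.

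Among regions with both H3K9cr peaks, H3K9ac was missing less often where the summed H3K9cr length was greater, and at every length more often away from gene ends. Length here is the sum of a library's H3K9cr peaks in the region, averaged over both replicates. An H3K9ac peak can join several H3K9cr peaks into a single region, and the part of this joining in the trend was not tested. At gene ends, 76.21% of regions whose mean summed H3K9cr length was under 500 bp had no H3K9ac peak, and 1.939% of those of 3000 bp or more. Away from gene ends the corresponding shares were 91.47% and 17.86%. For summed H3K9cr lengths of 1000 to 1500 bp, 13.15% at gene ends (511 of 3886) and 60.71% away from them (1037 of 1708) had no H3K9ac peak.

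**Figure D1:**
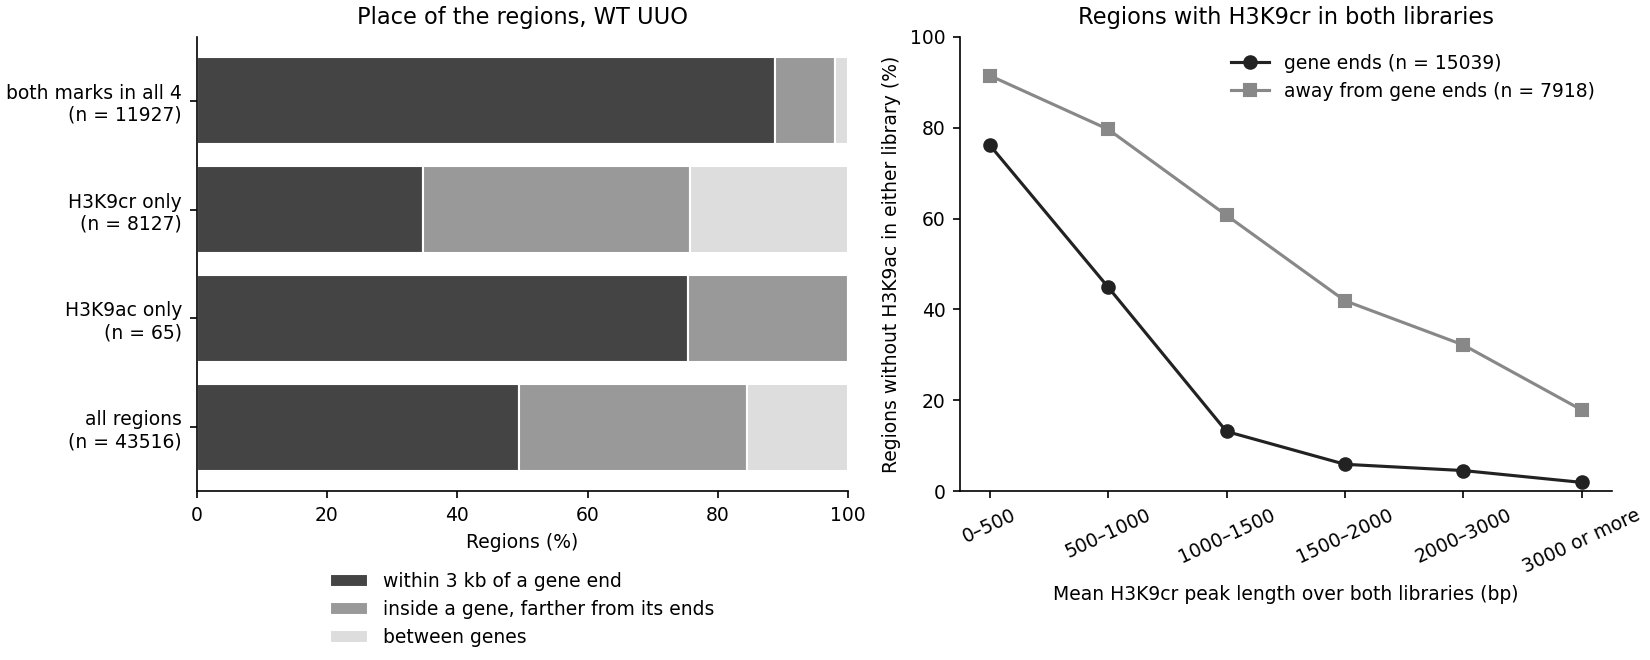
Left, percentage of the regions of each class within 3 kb of a gene end, inside a gene farther from its ends, or between genes; the H3K9cr-only bar has 34.82% at gene ends, against 88.78% for regions with both marks in all 4 libraries. Right, percentage of regions with both H3K9cr peaks that have no H3K9ac peak in either library. The regions are grouped by H3K9cr length in bp, summed over a library's peaks in the region and averaged over both libraries. The percentage goes from 76.21% to 1.939% at gene ends and from 91.47% to 17.86% away from them.

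The longest H3K9cr-only region away from gene ends was chr17:31963357-31971139, inside Hsf2bp, a partner of BRCA2 in meiotic recombination. Its H3K9cr length, summed over the peaks of a library in the region, was 7560 bp in replicate 1 (1 peak) and 6369 bp in replicate 2 (3 peaks). All 6 H3K9cr and all 4 H3K9ac libraries of the other groups had a peak there. By the same summed length, next came chr8:126881201-126888165 between genes (6241 and 6380 bp) and chr12:79608406-79614854 inside Rad51b (6449 and 4382 bp). They were followed by chr11:54880215-54886003 near Hint1 (5789 and 4395 bp) and chr14:70331009-70337147 inside the zinc and iron transporter gene Slc39a14 (6139 and 3467 bp). In the other groups all 6 H3K9cr libraries had a peak at each of these 5 regions, and 1 to 4 of the 4 H3K9ac libraries. Rad51b, a DNA repair gene spanning 551 kb, held 26 H3K9cr-only regions away from gene ends, more than any other gene. It was followed by Sgms1 (sphingomyelin synthesis) and Snx29 with 14 each and Frmd4b with 12. All 5 of the longest H3K9ac-only regions away from gene ends were inside genes: Rhoh, Dazap1, Dock9, Atp1b1 and Pde8b. The region in Rhoh, a small GTPase of blood cells, measured 381 and 1428 bp.

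At the level of genes, the H3K9cr-only rule took 3.92% of the 49943 genes and the H3K9ac-only rule 0.0420%. Both marks were called in all 4 libraries at 14336 genes, and 29440 had no peak in any. Of the 1957 H3K9cr-only genes, 741 were protein-coding, which is 3.39% of the 21887 protein-coding genes, and 937 were long non-coding RNA genes, 7.362% of the 12727 annotated. Both marks were called in all 4 libraries at 51.4% of protein-coding genes. Among the 2830 H3K9cr-only regions at gene ends, 1103 (38.98%) lay at a long non-coding RNA end and at no protein-coding end. No share over all regions at gene ends was set beside it, so whether 38.98% is high cannot be told. The gene rule and the region rule did not always coincide: 1695 of the 1957 genes lay at an H3K9cr-only region, 101 had H3K9ac in the same merged region beyond the 3 kb window, and at 161 the replicates' peaks were in different regions. For H3K9ac, 10 of 21 genes lay at an H3K9ac-only region. With lists of equal length, 536 genes were H3K9cr only and 578 H3K9ac only, and 14 of the 578 were H3K9ac only in the full lists. This cut dropped H3K9cr peaks shorter than 1049 and 835 bp but kept H3K9ac peaks down to 302 and 389 bp. The 2 counts therefore do not compare the marks at equal sensitivity. Leaving out 1 library gave 2346 to 3374 H3K9cr-only and 45 to 171 H3K9ac-only genes. At 85 protein-coding genes the H3K9cr-only call held under all 5 other ways of assigning peaks, and at 2 genes the H3K9ac-only call did.

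Hrct1 had the longest H3K9cr-only peaks of any protein-coding gene by the mean of the replicates, 5403 bp in replicate 1 and 4674 bp in replicate 2. The one H3K9ac peak listed near it, in replicate 2, lay beyond the 3 kb window. The same gene had H3K9cr peaks of 3747 to 6583 bp in the other 6 H3K9cr libraries and H3K9ac peaks of 1984, 2810 and 5090 bp in 3 of the other 4 H3K9ac libraries, so H3K9cr was present there in every group. Hexim2, an inhibitor of the transcription elongation factor P-TEFb, had peaks of 3065 and 3311 bp. Proc, the anticoagulant protein C, had 3497 and 2398 bp. Ntn5, a netrin, and the neighbouring fucosyltransferase gene Sec1 shared the same peaks of 4488 and 1883 bp. The replicates differed widely at Mmp20, the enamel metalloproteinase, with 5198 and 1995 bp, at Rnf14, with 4709 and 1168 bp, and at Prm3, a protamine gene of sperm, with 5956 and 552 bp. At Prm3, Rnf14 and Poli, also among the 10 longest, the genes were not in an H3K9cr-only region under the merged-region rule. Csf2ra, the alpha chain of the GM-CSF receptor on myeloid cells, completed the 10, with 2488 and 3207 bp. Its peaks ran from the promoter shown above into the gene, and all 6 other H3K9cr libraries had a peak of 1472 to 2798 bp there while none of the other 4 H3K9ac libraries had any.

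Csf2ra shared that pattern, H3K9cr in all 8 libraries and H3K9ac in none of 6, with 7 other protein-coding genes, of which 5 lay at an H3K9cr-only region and Poli and Samd7 did not. The 5 were Vxn (1818 and 1777 bp in the WT UUO H3K9cr replicates), Wdr95 (460 and 460 bp), the surfactant protein gene Sftpb (1271 and 715 bp), the phospholipase gene Plaat1 (747 and 628 bp) and Pdcd1lg2 (963 and 1448 bp), which encodes the PD-1 ligand PD-L2. At the other end, 16 protein-coding H3K9cr-only genes had no peak of either mark in any of the other 10 libraries, and 10 of them lay at an H3K9cr-only region. Of these 10, the longest peaks were at Gzmk, a granzyme of T cells (1359 and 1518 bp), the macrophage chemokine gene Ccl4 (1687 and 386 bp), Clec3b, tetranectin (1157 and 854 bp), and Ly6c2, a marker of inflammatory monocytes (1201 and 379 bp). The rest of the 10 were Olfr530, Kcnmb1, Xpnpep2, Btbd17, Erich6b and Col9a2, and the 6 outside H3K9cr-only regions were Ccl5, Clec12a, Dpt, Krt83, Pcdhgb2 and Tnfsf14. Of 2 further genes with long H3K9cr-only peaks, S100a2, a calcium-binding protein of epithelia, had 2640 and 2599 bp in WT UUO, 1518 and 1252 bp in the H3K9cr libraries of ACSS2-/- UUO, and no peak in the other 8 libraries. Fcamr, a receptor for IgA and IgM, had 2032 and 3140 bp, and 3286 to 7503 bp in the 4 H3K9cr libraries of control kidneys, without H3K9ac in any library. The genes named here were picked out for their pattern after their values were seen.

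**Figure D2:**
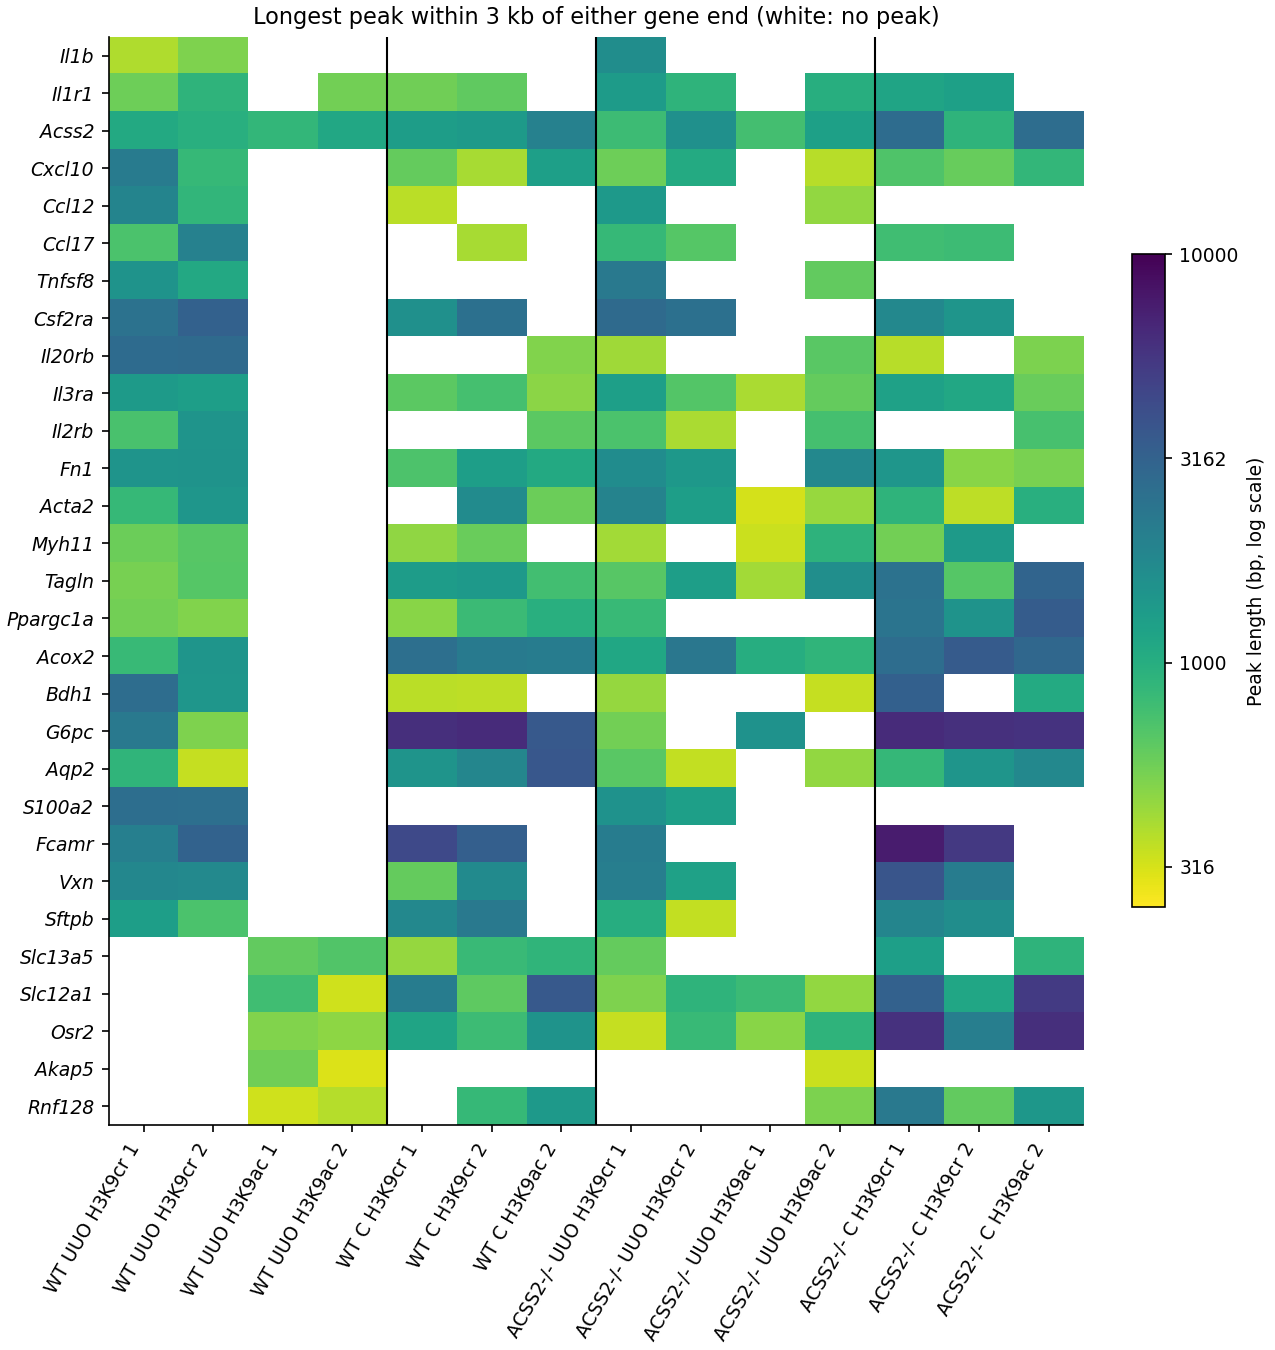
Length in bp, on a log colour scale, of the longest peak within 3 kb of either end of selected named genes, in each of the 14 libraries; white cells have no peak. The WT UUO columns follow the rule that chose the genes, and the other columns show H3K9cr without H3K9ac in every group at Csf2ra, Vxn and Sftpb.

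Cytokine and chemokine genes were H3K9cr only at 11 of 60, or 18.33%, beside 3.39% of all protein-coding genes, and at none was H3K9ac the only mark. At 18 of the 60 both marks were called in all 4 libraries and at 23 no peak was called, beside 51.4% and 35.93% of all protein-coding genes. The 11 included the CXCR3 ligand Cxcl10 (2146 bp in H3K9cr replicate 1 and 842 bp in replicate 2), the monocyte attractant Ccl12 (1891 and 880 bp), the T cell attractants Ccl17 (711 and 1992 bp) and Ccl5 (517 and 2350 bp), and the CD30 ligand Tnfsf8 (1498 and 1087 bp). The others were Ccl4, the neutrophil attractant Cxcl2 (478 and 685 bp), Lif (386 and 2129 bp), Il18 (930 and 926 bp), Tnfsf14 (447 and 482 bp) and Il1b. Of the 11, 8 lay at an H3K9cr-only region. Ccl5, Lif and Tnfsf14 did not, and both H3K9ac libraries had a peak in the merged region at Ccl5, of 724 and 698 bp, beyond the window. At Cxcl10 the replicate 1 peak covered the start site and the replicate 2 peak (chr5:92349109-92349950) overlapped only the far upstream end of the printed promoter. With lists of equal length, 3 of the 60 were H3K9cr only, beside 0.8727% of all protein-coding genes, and without H3K9cr replicate 1 or without H3K9ac replicate 1 the count was 12 (20%), beside 4.528% and 4.404%. In whole tissue, a mark in few cells and a weak mark in many cells cannot be told apart.

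Immune cell marker genes moved with the libraries as follows. T and NK cell genes had peaks at 23 and 24 of 34 in H3K9cr and 5 and 21 in H3K9ac, and 0 were H3K9cr only, since 14 had both H3K9cr peaks and the H3K9ac replicate 2 peak. Macrophage, dendritic cell and neutrophil genes had peaks at 22 and 17 of 30 in H3K9cr and 13 and 16 in H3K9ac, with Ly6c2 alone H3K9cr only. B cell genes had peaks at 6 and 5 of 15 in H3K9cr and 5 in each H3K9ac library, with Cd79b, a chain of the B cell receptor complex, H3K9cr only (325 and 1026 bp). Ly6c2 and Cd79b were 3.333% and 6.667% of their lists, beside 3.39% of all protein-coding genes that were H3K9cr only. The part of these cells in the cytokine gene count was not tested.

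Il1b, the interleukin that the study followed (chr2:129364569-129371164), met the rule on short peaks. They measured 390 bp in H3K9cr replicate 1 and 513 bp in replicate 2, with centres at -1684 and -1482 bp from the start site, and no H3K9ac peak of WT UUO was called within 15 kb of the gene. A second and longer pair of H3K9cr peaks, of 1941 and 1392 bp, had centres at -9322 and -9080 bp, outside the gene window. The 300 bases around the Il1b start site itself carried no peak in any of the 4 libraries. In the other groups, ACSS2-/- UUO H3K9cr replicate 1 had a peak of 1645 bp at the gene ends and the other 9 libraries had none. With a 1 kb window, or with lists of equal length, the gene no longer met the rule.

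Within 3 kb of its annotated ends, the receptor gene Il1r1 had H3K9cr peaks of 565 and 907 bp and an H3K9ac peak of 549 bp in replicate 2 only, so it met neither one-mark rule. At a start site inside the gene all 4 libraries had a peak, of 1522 and 1882 bp for H3K9cr and 1243 and 907 bp for H3K9ac. Of 80 cytokine and chemokine receptor genes, 6 (7.5%) were H3K9cr only, beside 3.39% of all protein-coding genes. Both marks were called in all 4 libraries at 44 (55%), close to the 51.4% of all protein-coding genes. The 6 were Csf2ra, Il20rb, Il3ra, Il2rb, Ccr9 and the decoy receptor gene Il1r2. Il20rb, a receptor chain for interleukins of the IL-20 group, had 2762 and 2783 bp at its far end, with centres 25106 and 25130 bp into the gene from its start site, and at Il3ra, the alpha chain of the IL-3 receptor, the peaks measured 1335 and 1266 bp. With lists of equal length the receptor count was 3 (3.75%), beside 0.8727% of all protein-coding genes, and without H3K9ac replicate 2 it was 14 (17.5%), beside 6.666%. All 32 interferon response genes had both marks in all 4 libraries, beside 51.4% of all protein-coding genes.

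Genes of contractile and matrix-producing cells were H3K9cr only at 6 of 27 (22.22%), beside 3.39% of all protein-coding genes. Both marks were called in all 4 libraries at another 6, beside 51.4% of all protein-coding genes. Acta2, smooth muscle actin and the usual marker of myofibroblasts, had peaks of 845 and 1437 bp on its promoter. Tagln (536 and 659 bp), the smooth muscle myosin gene Myh11 (574 and 657 bp) and Cnn1, calponin (331 and 541 bp), all of the same contractile apparatus, had short peaks. Fn1, the matrix protein fibronectin, had peaks of nearly equal length (1477 and 1513 bp) over its 5′ end. Ren1, renin, had 1639 and 1198 bp, but both H3K9ac libraries had peaks of 468 and 797 bp in the same region beyond the window. Of these 6, H3K9ac was called in the other groups at Acta2 and Tagln in all 4 libraries, at Fn1 in 3, at Myh11 and Cnn1 in 2 and at Ren1 in none. The count was 2 (7.407%) with lists of equal length and 8 to 10 (29.63% to 37.04%) with 1 library left out, beside 0.8727% and 4.404% to 6.666% of all protein-coding genes in the same settings.

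**Figure D3:**
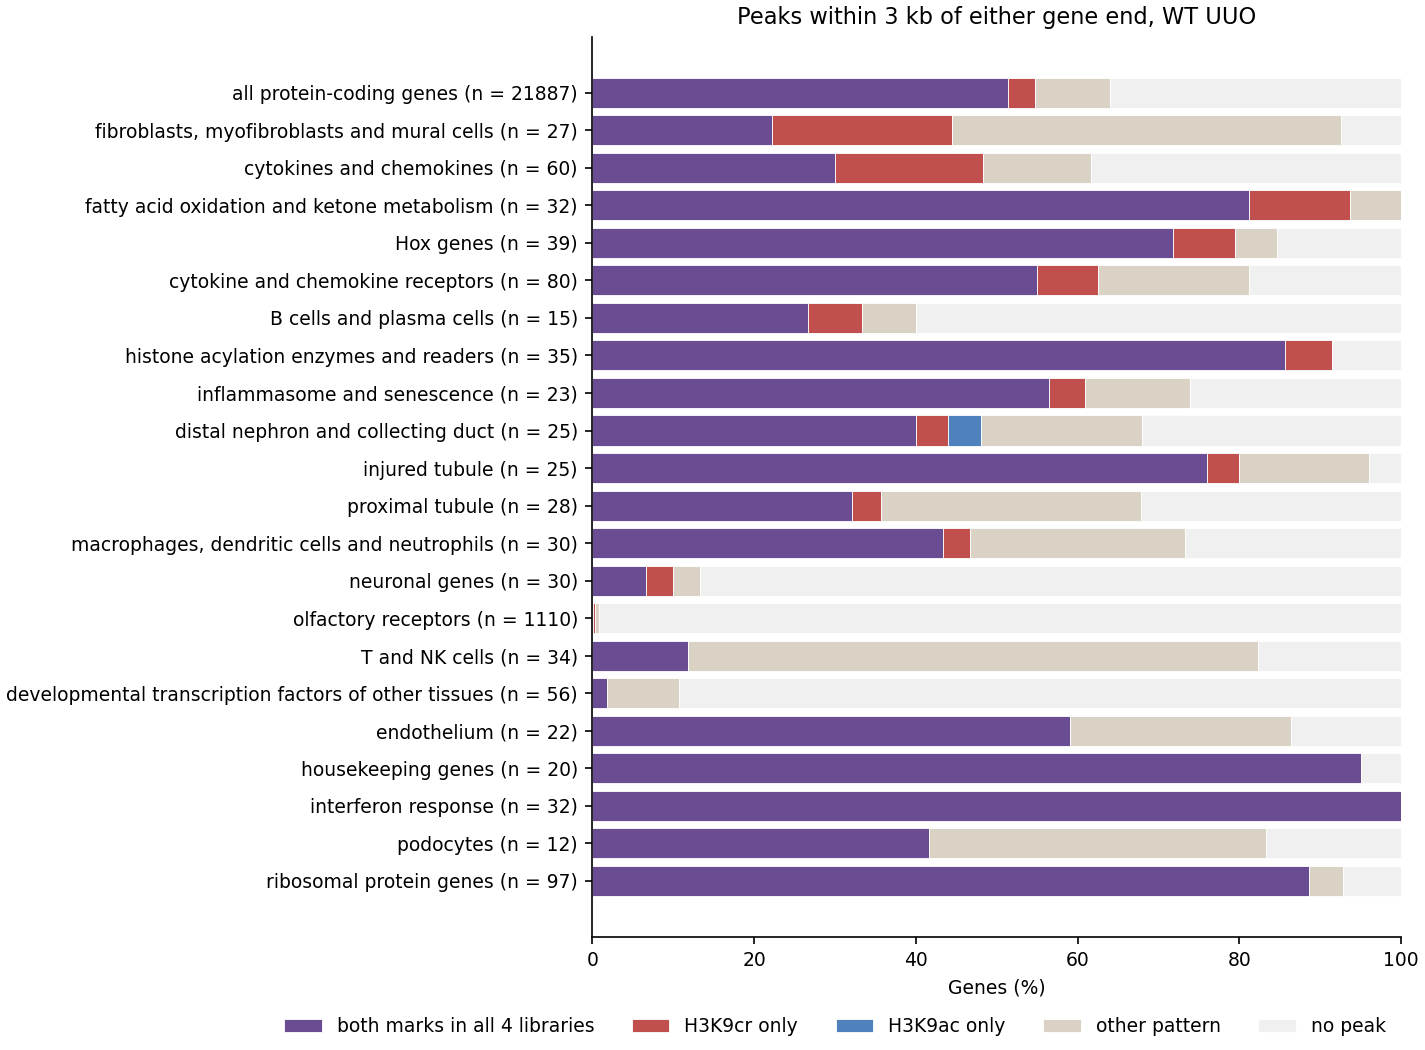
For each gene list, the percentage of its genes with H3K9cr only, H3K9ac only, both marks in all 4 libraries, no peak, or another pattern in WT UUO kidneys. Cytokines and chemokines (18.33%) and fibroblasts, myofibroblasts and mural cells (22.22%) have the largest H3K9cr-only shares of the lists, against 3.39% of all protein-coding genes.

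Among fatty acid oxidation and ketone genes, 4 of 32 (12.5%) were H3K9cr only, beside 3.39% of all protein-coding genes. Both marks were called in all 4 libraries at 26 (81.25%), beside 51.4% of all protein-coding genes. The 4 included Bdh1 (2664 and 1448 bp) of ketone metabolism, the peroxisomal oxidase gene Acox2 (833 and 1468 bp) and the coactivator gene Ppargc1a (548 and 505 bp). The Bdh1 peaks lay at the far end of the gene, and at its start site all 4 libraries had a peak, of 1865 and 1778 bp for H3K9cr and 848 and 1231 bp for H3K9ac. At Ppargc1a the H3K9ac libraries had peaks of 3198 and 2780 bp inside the gene, beside H3K9cr peaks of 2060 and 2674 bp, so the one-mark call held only at the annotated gene ends. With lists of equal length 1 of the 32 (3.125%) was H3K9cr only, beside 0.8727% of all protein-coding genes. Over the whole gene the count was 2 (6.25%), beside 3.856%. Of 35 histone acylation enzymes and readers, 2 deacetylase genes (5.714%) were H3K9cr only, Hdac7 (1222 and 470 bp) and Hdac8 (839 and 587 bp). Another 30 (85.71%) had both marks, and the shares of all protein-coding genes were 3.39% and 51.4%. At a start site inside Hdac7, beyond the window, both marks were called in all 4 libraries, with peaks of 5159 and 5101 bp for H3K9cr and 3012 and 3733 bp for H3K9ac. Acss2 itself had both marks, with peaks of 1069 and 980 bp for H3K9cr and 869 and 1100 bp for H3K9ac.

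Tubule genes gave single H3K9cr-only cases, 3.571% to 4% of each list, close to the 3.39% of all protein-coding genes. In the proximal tubule list, 1 of 28 was H3K9cr only, the gluconeogenic G6pc (2248 and 515 bp). In the distal nephron list, 1 of 25 was H3K9cr only, the collecting duct water channel gene Aqp2 (903 and 348 bp), and 1 was H3K9ac only, Slc12a1. Injured tubule genes had both marks at 19 of 25 (76%), beside 51.4% of all protein-coding genes, and Krt20 (589 and 640 bp) was H3K9cr only. Proximal tubule genes, which mark the labelled tissue, had peaks in every library, at 18 and 12 of 28 in H3K9cr and 11 and 12 in H3K9ac. Endothelial (22) and podocyte genes (12) had no one-mark gene.

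Genes that every cell uses and genes of other tissues gave few one-mark calls. Both marks were called in all 4 libraries at 19 of 20 housekeeping genes (95%) and 86 of 97 ribosomal protein genes (88.66%). The share of all protein-coding genes was 51.4%, and 0 of either list were H3K9cr only. Of 56 developmental transcription factors of other tissues, 50 had no peak, beside 35.93% of all protein-coding genes. Neuronal genes had 1 H3K9cr-only member of 30, Grin1, and olfactory receptors 3 of 1110, Olfr524, Olfr530 and Olfr94. Hox genes had 3 of 39, Hoxc5, Hoxc4 and Hoxd1, and 28 (71.79%) had both marks. The H3K9cr-only shares were 3.333% of neuronal genes, 0.2703% of olfactory receptors and 7.692% of Hox genes, beside 3.39% of all protein-coding genes.

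The 11 protein-coding H3K9ac-only genes mostly had short peaks. Slc13a5, a citrate transporter gene, had peaks of 609 and 681 bp over the start site shown above, with the nearest H3K9cr peak 33833 bp away. Slc12a1, the furosemide-sensitive cotransporter NKCC2 of the thick ascending limb, had 782 and 330 bp, with centres 1644 and 1680 bp after its start site. Osr2, a transcription factor of the developing kidney, had 508 and 469 bp. Slc13a5 and Osr2 were the 2 whose call held under all 5 other ways of assigning peaks. At Slc12a1 and Osr2 all 6 H3K9cr and all 4 H3K9ac libraries of the other groups had peaks, so the one-mark pattern was not seen in any other group. At Slc13a5, 4 of these 6 H3K9cr libraries and 2 of these 4 H3K9ac libraries had a peak. The longest peaks were at Gm36712 (2841 and 3010 bp) and at Klb, the FGF co-receptor beta-klotho (2489 and 2490 bp), but there the H3K9ac-only call came from the edge of the 3 kb window. At Klb the H3K9cr peaks, of 1863 and 1689 bp, lay within the same region just outside it. BC024139 and Eppk1 shared the same peaks of 356 and 352 bp. The others were 1500009L16Rik (388 and 532 bp), Akap5 (560 and 307 bp), Rnf128 (326 and 376 bp) and Tmod1 (318 and 294 bp).

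The one-mark regions were next looked up in the 10 libraries of the other groups, which had no part in choosing them. H3K9cr-only regions overlapped a peak more often in H3K9cr libraries. The shares were 55.81% and 61.22% in WT C, 72.19% and 62.11% in ACSS2-/- C, and 72.72% and 52.98% in ACSS2-/- UUO. In H3K9ac libraries they were 30.91% in WT C, 46.98% in ACSS2-/- C, and 8.453% and 28.02% in ACSS2-/- UUO. Every H3K9cr library was above every H3K9ac library. The mean over groups was 62.84% for H3K9cr and 32.04% for H3K9ac, a difference of 30.8 points (exact two-sided permutation test of the marks within groups, p = 0.01852, the smallest that the 54 arrangements can give; 0.07407 adjusted over the 4 planned tests). H3K9ac-only regions went the other way, with mean shares of 42.82% in H3K9cr and 72.31% in H3K9ac libraries, a difference of -29.49 points (exact permutation p = 0.03704; adjusted p = 0.07407), and ACSS2-/- UUO H3K9ac replicate 1, at 33.85%, was below 5 of the 6 H3K9cr libraries. Neither difference passed 0.05 after adjustment. With lists of equal length the differences were 15.81 and -37.18 points, each with an adjusted p of 0.03704 in the same exact permutation test. Without ACSS2-/- UUO H3K9ac replicate 1 they were 27.54 and -35.64 points, each with an adjusted exact permutation p of 0.04938. Of 14 alternatives to each difference, 11 left the adjusted exact permutation p above 0.05 and 3 brought it below. Over all regions, the share with a peak was also higher in the H3K9cr libraries (49.24% to 66.01%) than in most H3K9ac libraries (31.87% to 53.89%).

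Many H3K9cr-only regions carried H3K9cr in WT control kidneys too, at shares close to those of all regions. In WT control kidneys, 49.05% had H3K9cr in both replicates, 32.02% in neither, and 30.91% had H3K9ac. By library, WT C H3K9cr replicates 1 and 2 had a peak at 55.81% and 61.22% of them, beside 54.03% and 57.07% of all regions. The H3K9ac share of 30.91% stood beside 44.5% of all regions. No peak of either mark was found at 619 regions (7.617%) in any other library. H3K9cr in all 6 and H3K9ac in none of the other 4 was found at 399 regions (4.91%), whereas 3413 (42%) had no H3K9ac in any of the 4. Of the H3K9cr-only genes, 57.69% had H3K9cr in both WT C replicates, 43.43% had H3K9ac in WT C, and 68 had no peak elsewhere. Shares over all genes were not set beside these. Applying the same rule within ACSS2-/- UUO kidneys gave 4430 H3K9cr-only regions of 45438 (9.75%) and 235 H3K9ac-only (0.5172%), and 891 and 68 genes. The H3K9cr-only genes of both genotypes had 465 in common, 23.76% of the WT UUO genes and 52.19% of the ACSS2-/- UUO genes, and the H3K9ac-only genes 6. The difference between the genotypes was not tested.

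At shared peaks, H3K9cr peaks were longer. In the 8794 regions with exactly 1 peak in each library, median lengths were 1581 and 1430 bp for H3K9cr and 1086 and 1241 bp for H3K9ac. Both H3K9cr peaks were longer than both H3K9ac peaks in 4568 regions (51.9%), and both H3K9ac peaks were longer in 529 (6.02%). The median over regions of the log2 ratio of the mean lengths was 0.30 (1.234-fold), against 0.13 between the H3K9cr replicates and -0.13 between the H3K9ac replicates. Over the 4 pairs of an H3K9cr with an H3K9ac library, the median log2 ratio ran from 0.15 to 0.45. It was lowest, 0.15 (1.107-fold), for H3K9cr replicate 2 against H3K9ac replicate 2, the pair with the same mouse number, which is close to the ratio between replicates. The other 3 pairs each hold H3K9cr replicate 1 or H3K9ac replicate 1. With 2 libraries per mark the exact two-sided permutation test over libraries cannot go below its observed p of 0.3333. The ratio was 1.212 at gene ends, 1.453 inside genes and 1.849 between genes. In the 10 other libraries the same regions showed no such difference: the mean log2 difference was -0.13 (0.9155-fold; exact permutation p = 0.2222; adjusted p = 0.2963). Median lengths there ran from 1325 to 1800 bp in the H3K9cr libraries and from 1207 to 2146 bp in the H3K9ac libraries, so the ranges overlapped. Without ACSS2-/- UUO H3K9ac replicate 1, H3K9ac was the longer mark there, by -0.20 on the log2 scale (adjusted exact permutation p = 0.04938). In the other 11 of 12 alternatives the adjusted exact permutation p stayed above 0.05. Whether the length difference itself differed between groups was not tested.

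At single genes with 1 start site in the region, the length ratio reached far beyond its median. The largest log2 ratio, 2.63, was at Sult1c2, a sulfotransferase (2593 and 2140 bp for H3K9cr, 467 and 295 bp for H3K9ac). Next came Ctf1, the cytokine cardiotrophin (1526 and 1705 against 303 and 308 bp), and Sp4, a transcription factor (2230 and 2194 against 348 and 516 bp). They were followed by Plaur, the urokinase receptor (2622 and 1028 against 403 and 378 bp), Enpep, the aminopeptidase that cleaves angiotensin (1620 and 1399 against 313 and 338 bp), and Pdk4, which restrains glucose oxidation (2322 and 1792 against 434 and 476 bp). The reverse ratios were smaller, the largest being -1.25 at Apc2 (504 and 515 bp for H3K9cr, 1128 and 1294 bp for H3K9ac), then Gm12258 and Fbxo31. At each of these genes the 2 libraries of one mark did not overlap the 2 of the other, as the choice by ratio favours.

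The extra length of H3K9cr lay before the start site. At 4746 shared regions with 1 start site, H3K9cr peaks reached a median of 611 and 550.5 bp before it and H3K9ac peaks 233.5 and 335.5 bp. After the start site, the marks reached alike, 932 and 860 bp for H3K9cr and 859 and 939 bp for H3K9ac. Both H3K9cr peaks reached farther before the start site than both H3K9ac peaks at 3212 sites (67.68%), and the opposite held at 101 (2.128%). After the start site these counts were 1080 (22.76%) and 899 (18.94%). The start site itself was covered at 97.53% and 94.67% of sites by H3K9cr and at 70.14% and 77.05% by H3K9ac. The median share of the peak lying before the start site was 38.45% and 37.69% for H3K9cr and 20.66% and 24.9% for H3K9ac.

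In the other groups, too, a larger share of the H3K9cr peak lay before the start site, but the reaches behind it were not those of WT UUO. In ACSS2-/- C kidneys H3K9ac reached 672 bp before the start site and H3K9cr 706 and 685 bp, while after it H3K9ac reached 1392 bp and H3K9cr 1018 and 954 bp. In WT C kidneys H3K9ac reached 507 bp before and 1181 bp after, and H3K9cr 596 and 619 bp before and 895 and 931 bp after. In ACSS2-/- UUO kidneys H3K9ac reached 290.5 and 481 bp before and 922.5 and 1126 bp after, and H3K9cr 581 and 510 bp before and 895 and 810 bp after. So in each of these groups H3K9ac reached farther after the start site, unlike in WT UUO. The share of the peak before the start site was 37.05% to 40.5% in the 6 H3K9cr libraries and 22.24% to 31.7% in the 4 H3K9ac libraries, without overlap. The means over groups were 38.77% and 28.72%, a difference of 10.05 points (exact two-sided permutation test within groups, p = 0.01852, the smallest possible; 0.0463 adjusted over 5 tests). This test was added after the WT UUO values were seen. Leaving out 1 of the 10 libraries kept the difference between 8.978 and 11.12 points, but in 9 of the 10 cases the adjusted exact permutation p was then above 0.05, from 0.06173 to 0.1389, with fewer arrangements possible.

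**Figure D4:**
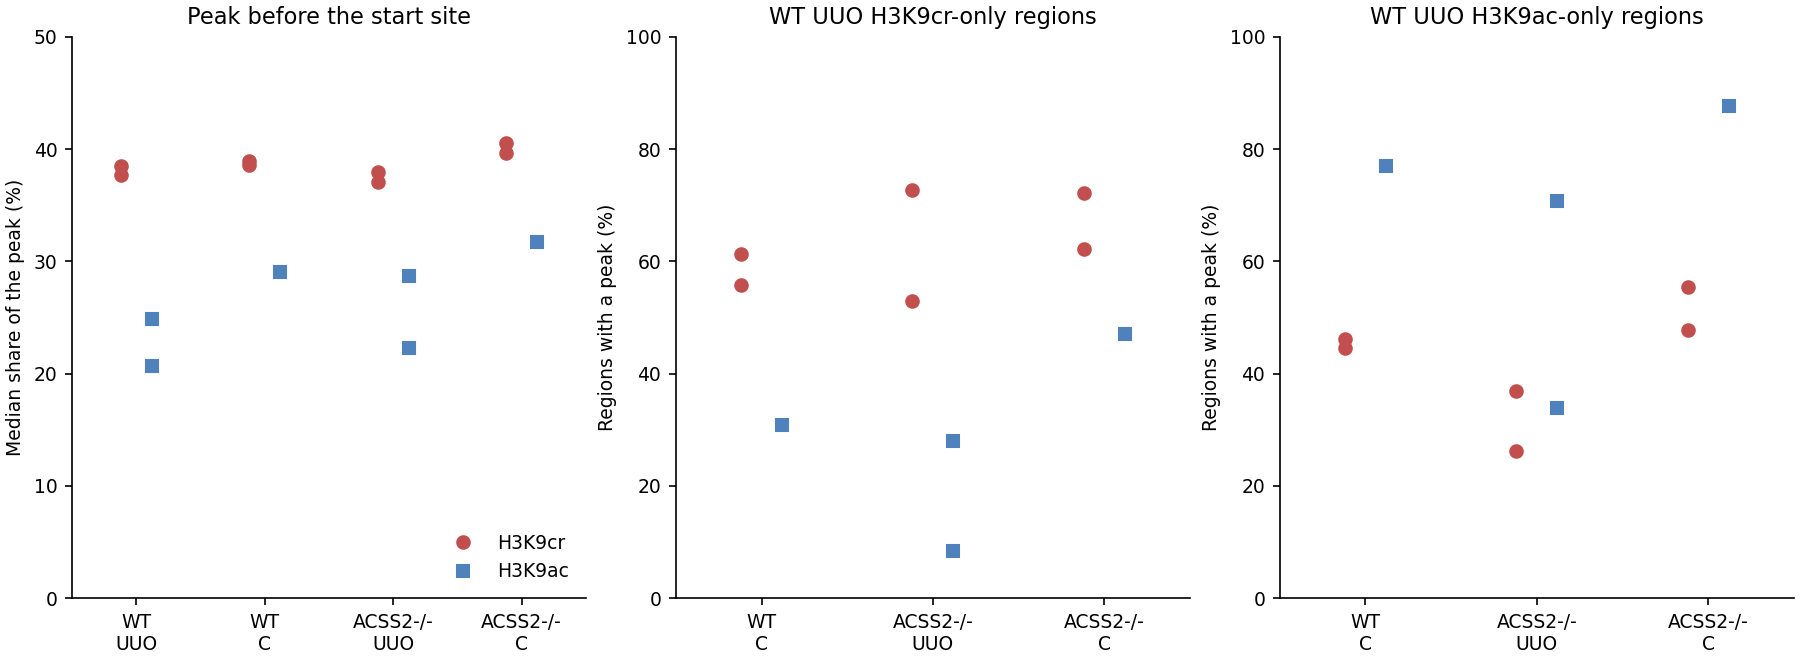
Left, median share of the peak lying before the start site at the 4746 shared start sites, in percent, for each of the 14 libraries. Middle and right, percentage of the WT UUO H3K9cr-only and H3K9ac-only regions that overlap a peak in each of the 10 libraries of the other groups. Each point is 1 library. The H3K9cr points lie at 37.05% to 40.5% on the left, above all H3K9ac points, and at 52.98% to 72.72% in the middle, above the H3K9ac points at 8.453% to 46.98%.

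**Figure D5:**
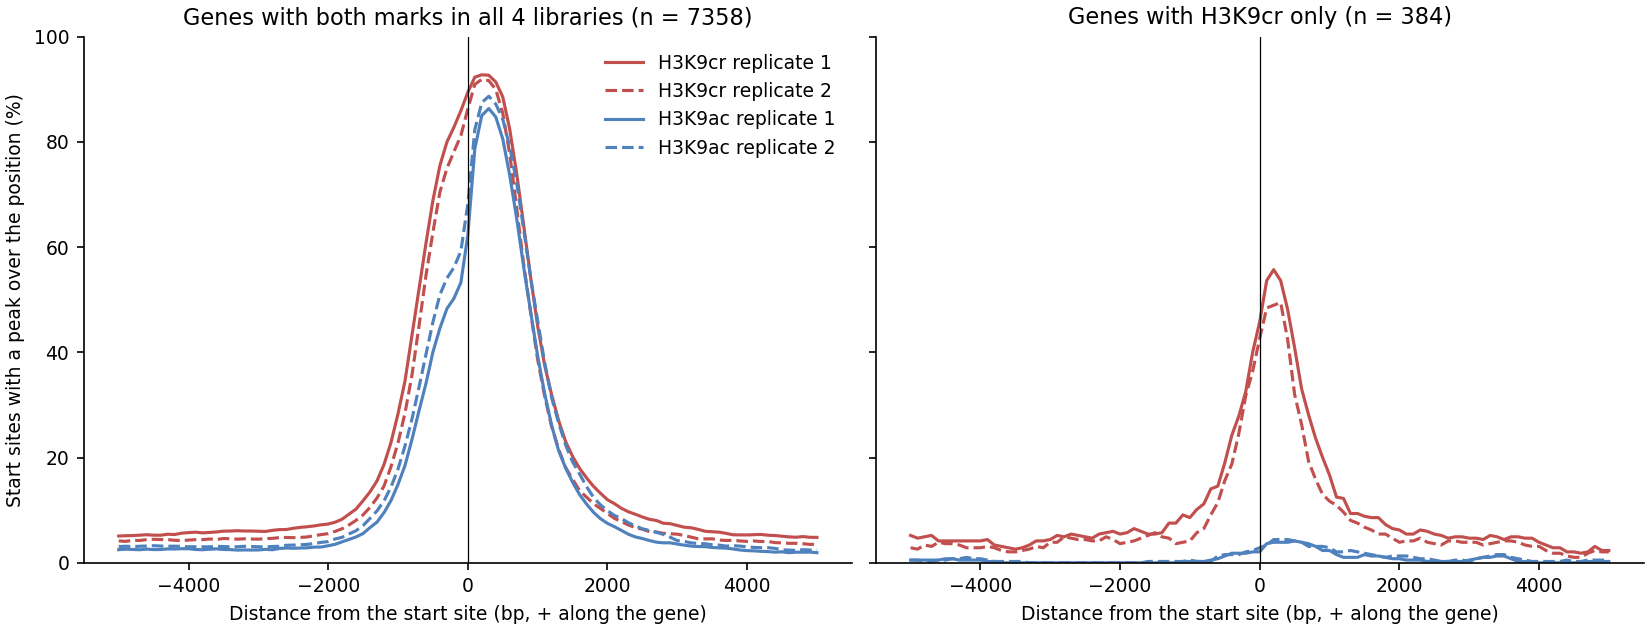
Percentage of start sites covered by a peak at each distance from the start site, in bp along the direction of transcription, in the 4 WT UUO libraries, for 7358 start sites of genes with both marks and 384 of H3K9cr-only genes. At genes with both marks the H3K9cr curves extend farther before the start site than the H3K9ac curves, while after it the curves of both marks run together. At H3K9cr-only genes the H3K9cr curves peak at 55.73% and 49.48% and the H3K9ac curves at 4.167% and 4.427%, a gap that follows from the rule that chose these genes in the same libraries.

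The sequence at H3K9cr-only promoters was intermediate. The ratio of observed to expected CpG over the 300 bases had a median of 0.6874 in 1306 promoters overlapped by H3K9cr only, 0.8115 in 7777 with both marks and 0.2182 in 9130 with no peak, beside 0.567 in all 21263 promoters of protein-coding genes. The ratio was above 0.6 in 59.42%, 81.79%, 13.42% and 47.64% of them. The 13 H3K9ac-only promoters had a median of 0.677. TATAAA, searched on the coding strand between 45 and 16 bases before the start site, was found in 1.225% of H3K9cr-only, 0.9129% of both-mark and 2.662% of all promoters. The NF-kB motif, searched on both strands, was found in 10.41% of H3K9cr-only and 9.251% of all promoters, and TGANTCA, which reads the same on both strands, in 5.13% and 6.989%. The CArG box of smooth muscle genes, by its strict motif, was found in 1.225% and 1.524%. A match is only the presence of the letters.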

How the data were processed

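Peak lists of H3K9cr and H3K9ac ChIP-seq from mouse kidney were used as deposited. Per the methods and processing notes, the authors crosslinked tissue with formaldehyde, sequenced 150 bp read pairs, aligned them to mm10 with Bowtie2, removed organelle reads, reads of mapping quality under 30 and duplicates, and called peaks per library with MACS2 at q < 0.05; tool versions and the background library of the peak calling are not given in the sources used here. From the deposited lists, chromosome, start, end and peak name were used, with no count, height or p-value, so depth is unknown and no counting interval can be given.

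Peaks of the 4 WT UUO libraries were merged at 1 bp overlap and assigned to RefSeq genes of GRCm38.p6 (same assembly as mm10), 3 kb either side of either gene end (Python 3.11.15, pandas 2.3.3, SciPy 1.17.1; interval code checked against bedtools 2.31.1 and on simulated data). Marks were permuted exactly, over libraries or within groups, with Benjamini-Hochberg adjustment. Named genes were Il1b, Il1r1 and Acss2, the 10 per mark with the longest one-mark peaks, up to 5 per gene list and the 5 longest regions per mark away from gene ends. Other members of a list, and genes picked for their pattern elsewhere, were named after their values were seen. Groups came from sample titles, since the genotype label of WT UUO reads only UUO. Members and gene lists were chosen with earlier results of these data known. No set test was run, and some genes of the lists are not reported here. Alternatives were narrower or whole-gene windows, a larger overlap, equal list lengths, autosomes only and leaving out each library; a region-of-that-mark-only rule, pairing by mouse and the start-site measure were added after seeing the data. No genome sequence was used, so peak sequences are not shown; promoter sequences are RefSeq GRCm38.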

Additional observations from a re-analysis of the deposited data

How the results depend on the processing

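One-mark counts depended on the lists' length and on single libraries more than on how peaks were assigned. With each list cut to its 15988 longest peaks, H3K9cr-only and H3K9ac-only regions numbered 1806 and 798, and genes 536 and 578; the shortest peaks kept were then 1049 and 835 bp in the H3K9cr lists and 302 and 389 bp in the H3K9ac lists, so that this setting does not equalise sensitivity either. Leaving out 1 of the 4 libraries, which removes a requirement of the rule, gave 8856 to 20808 and 128 to 1421 regions and 2346 to 3374 and 45 to 171 genes. Requiring no H3K9cr peak within 1 kb left 16 H3K9ac-only regions. Protein-coding genes alone numbered 741 and 11, asking that peak and window share at least 50% of whichever is shorter gave 36 H3K9ac-only genes, and requiring a region of that mark only gave 10. Of the 60 named H3K9cr-only genes, 37 kept the call with a 1 kb window, 49 over the whole gene, 49 with the larger overlap, 29 with lists of equal length and 52 in regions of that mark only.

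The length ratio at shared WT UUO peaks was between 0.22 and 0.39 (log2) without 1 library. As a replicate block, pairing libraries by replicate number, it was 0.2994 (log2), with an exact permutation p of 0.5, the smallest that 2 pairs allow. The mouse numbers in the peak names cross the replicate numbers and pair only the replicate 2 libraries in WT UUO. In the other groups they pair 4 libraries of each mark, which reach an exact permutation p of 0.125 at best. In a block by these mice, an alternative chosen after seeing the data, the differences were 33.67 and -28.46 points for the H3K9cr-only and H3K9ac-only overlaps, -0.0946 (log2) for length and 10.7 points for the share before the start site (adjusted exact permutation p = 0.2083). In the other groups, the overlap difference for H3K9cr-only regions was 15.81 points with equal lists and 0.7905 as log2 of the share over that of all regions, and for H3K9ac-only regions -37.18 points and -1.086, all 4 with an adjusted exact permutation p of 0.03704. For each overlap difference, 11 of 14 alternatives left the adjusted exact permutation p above 0.05. Leaving out 1 library gave 27.51 to 36.11 and -35.64 to -23.33 points, -0.1951 to -0.04054 (log2) for the length difference and 8.978 to 11.12 points for the share before the start site. The part of read depth in these results was not tested.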
